A study of Mus musculus with 8 samples.

Results

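The genes of neuregulin-ErbB and endothelin signalling were examined in mouse embryos with and without Isl1. They comprised 9 genes, taken by symbol from a count table of 20701 gene symbols, with the RefSeq transcript of the highest summed count read for each: the ligands Nrg1 and Edn1, the ErbB receptors Egfr, Erbb2, Erbb3 and Erbb4, the endothelin receptors Ednra and Ednrb, and Ece1, the protease that makes mature endothelin. RNA came from the pharyngeal mesoderm and heart of single C57BL/6 embryos at E8.75, the stage of 6 somites, 4 wild-type and 4 Isl1-/-, the latter mutant for the LIM-homeodomain factor of cardiac progenitors. The labels name no treatment, and the allele behind Isl1-/- is not named in them. The libraries were made from 100 ng of RNA, and the labels call the molecule polyA RNA in 7 libraries and total RNA in knockout embryo 2. The deposited table gave raw reads per transcript, and the study asked what changes when Isl1 is lost in the forming heart.

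In the heart, neuregulin made by the endocardium acts on the adjoining muscle. It binds Erbb4 or Erbb3, and these pair with Erbb2, which has no ligand of its own. Egfr is bound by another set of ligands. Edn1 of the pharyngeal arches, cleaved by Ece1, acts through Ednra on neural crest cells and patterns the lower jaw and great vessels, and Ednrb is the receptor through which Edn3 acts on the crest cells that become pigment and gut nerve cells.

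Total counts over the transcripts kept were 23480470 to 26153039 in wild-type and 18916452 to 25047013 in knockout embryos, and no member had fewer than 119 reads in any library. Isl1 itself was at 9.72 to 26.9 CPM (reads per 1000000 after trimmed-mean scaling) in wild-type embryos and at 1.78 to 2.4 CPM in knockout embryos, a log2 fold change of -3.0 (standard error (SE) 0.362, false discovery rate (FDR) 0.0041, edgeR quasi-likelihood test adjusted over 14075 genes). All 10 heart muscle markers were detected in every embryo, as were all 9 endothelial, 6 neural crest, 7 epithelial, 5 neural tube, 6 primitive erythroid and 5 yolk sac endoderm markers. Because every list was detected, detection does not check the labelled tissue. None of the lists was for pharyngeal mesoderm. Summed erythroid markers were at 361 to 2320 CPM in wild-type and 1230 to 3060 CPM in knockout embryos, and summed yolk sac endoderm markers at 388 to 3260 and 303 to 4770 CPM. Sex was uneven between genotypes: Uty, Kdm5d, Ddx3y and Eif2s3y of the Y chromosome were at 47.3 CPM or more in 1 of 4 wild-type embryos, embryo 4, and in 3 of 4 knockout embryos, 1, 3 and 4, and at 0.0443 CPM or less in the others. Values from a fit with the Y-linked level as a covariate are given where they moved by more than 1.5 times.

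Of the 9 genes, 0 passed an FDR of 0.05, where 0.973% of all 14075 genes tested did and 0.867% did so with lower values in the knockout. DESeq2 called 1 of 9, Erbb4, beside 5.35% of the 13246 genes to which it gave an FDR. The looser cut that the study applied asked for an unadjusted p under 0.05 and a log2 change larger than 0.58 up or down. Applied here to the edgeR fit, where the study used DESeq2, it called 1 of 9, Erbb4, beside 3.93% of all genes. An unadjusted p under 0.05 by edgeR was reached by 3 of 9, Egfr, Erbb2 and Erbb4, beside 17.4% of all genes. Knockout values lay below every wild-type value for Nrg1 and Erbb4, 2 of 9 beside 6.33% of all genes, and above every wild-type value for Egfr, 1 of 9 beside 3.96%. The median log2 fold change of the 9 genes was 0.184, with 2 lower and 7 higher, and that of all genes was 0.006.

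**Figure D1:**
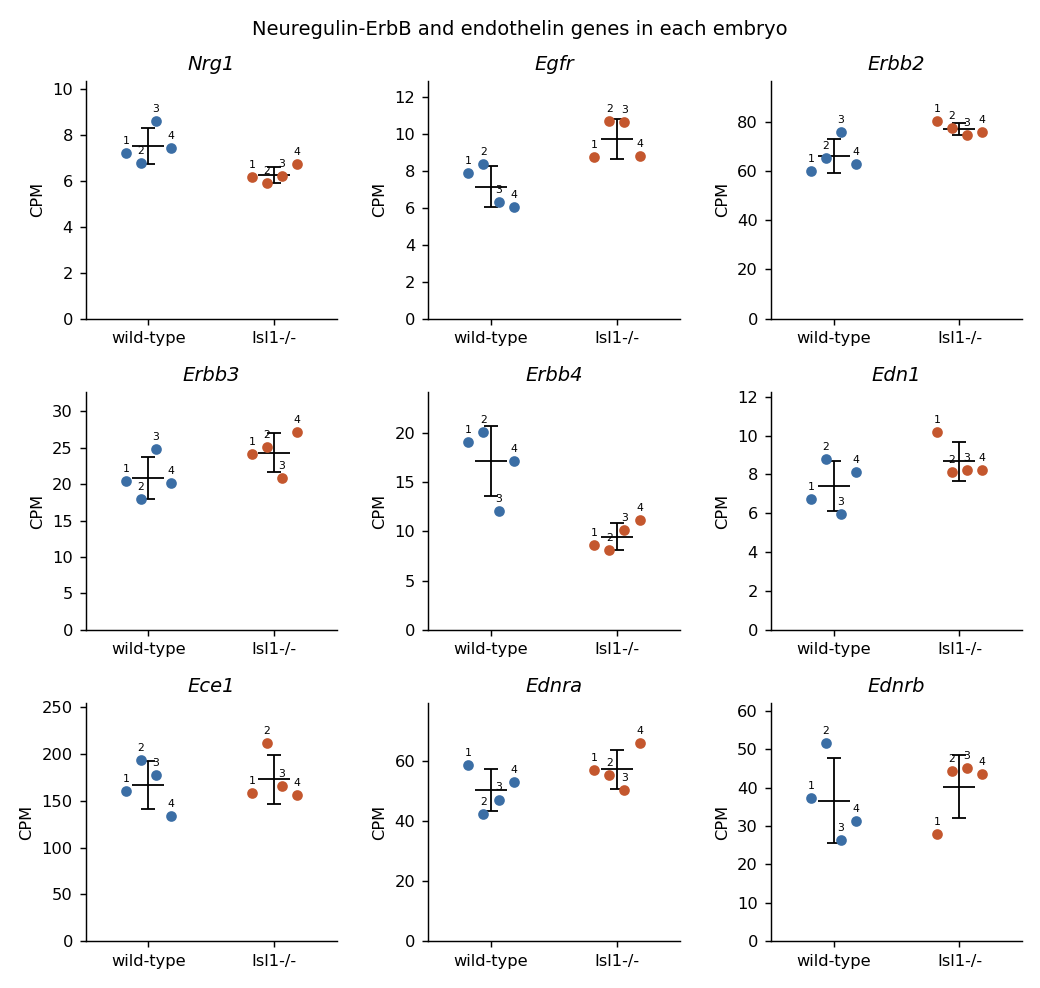
Level of each of the 9 genes in every embryo, in CPM on an axis from 0. Points are single embryos with their number, horizontal lines are means and bars are 1 standard deviation (n = 4 per genotype). For Erbb4 and Nrg1 every knockout point lies below every wild-type point, for Egfr every knockout point lies above, and for the other genes the genotypes overlap.

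Erbb4, the receptor of heart muscle that binds neuregulin directly, was measured at 0.553 times its wild-type level in knockout embryos. The gene lies on chromosome 1, 68078760 to 69154633, minus strand (mm9), and was read from transcript NM_010154 of 12007 bases. Wild-type embryos 1 to 4 had 19.1, 20.1, 12.1 and 17.1 CPM of Erbb4, against 8.58, 8.08, 10.1 and 11.1 CPM for knockout embryos 1 to 4, the order in which values are given throughout. All knockout values were below all wild-type values, although wild-type embryo 3 stood apart from the other wild-type embryos and close to knockout embryo 4. The means were 17.1 ± 3.56 and 9.47 ± 1.39 CPM (SD, n = 4 each), a log2 fold change of -0.85 (SE 0.172, unadjusted p = 0.000594, FDR 0.0549 by edgeR). The call turned on the tool and on 1 embryo: the FDR was 0.000321 with DESeq2, 0.0431 with every transcript entry fitted and 0.00759 without wild-type embryo 3, where the log2 fold change was -0.99.

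Heart muscle markers, like Erbb4, were lower in knockout embryos. All 10 markers had lower means in knockout embryos and 7 of 10 passed the FDR. Their median log2 fold change was -1.08, none was at 0 in any embryo, and their summed level was 2810 to 4280 CPM in wild-type and 1490 to 2290 CPM in knockout embryos. Wild-type embryo 3, the lowest of its group in Erbb4, also had the lowest marker sum of its group. It differed in other lists as well, with the highest yolk sac endoderm sum of its group, 3260 CPM, and the lowest erythroid sum, 361 CPM. Among knockout embryos the highest Erbb4 and the highest heart muscle marker sum did not coincide. Embryo 4 had the highest Erbb4, 11.1 CPM, at a marker sum of 1740 CPM, and embryo 3 had 10.1 CPM at the highest sum, 2290 CPM. Set against the marker sum, Erbb4 amounted to 4.47, 4.78, 4.30 and 4.41 CPM per 1000 marker CPM in wild-type embryos 1 to 4 and to 4.34, 5.44, 4.41 and 6.38 in knockout embryos 1 to 4. On this scale the genotypes overlapped and no knockout embryo lay below the lowest wild-type embryo. The quantity was chosen with the values known and was given no test. In whole tissue, fewer cells of a type and less RNA per cell cannot be told apart.

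**Figure D2:**
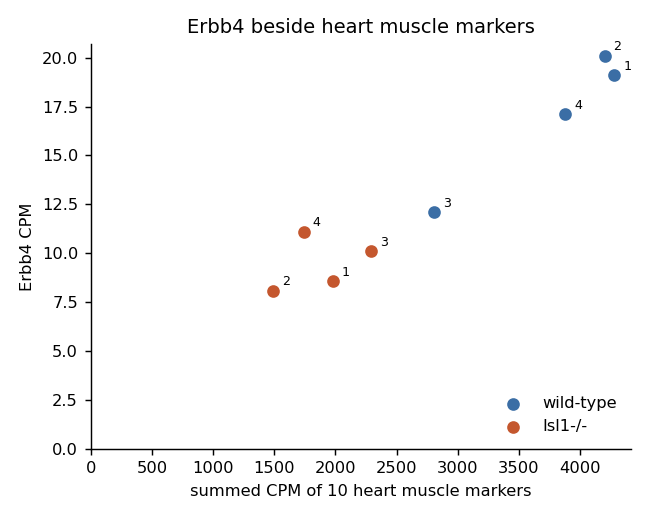
Erbb4 level (CPM) against the summed level of 10 heart muscle markers (CPM) in each embryo, both axes from 0. Numbers are embryo numbers. The 4 knockout embryos lie at marker sums of 1490 to 2290 CPM and wild-type embryo 3, at 2810 CPM, lies between them and the other wild-type embryos on both axes.

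Erbb2, the partner of Erbb4, and Erbb3, the other receptor that binds neuregulin, had higher means in knockout embryos. This was the opposite sign to Erbb4, and neither passed the FDR. Erbb2 (chromosome 11, 98273784 to 98299030, plus strand), the receptor without a ligand of its own, stood at 60.1, 65.2, 75.8 and 63.0 CPM in wild-type and 80.5, 77.4, 74.8 and 75.8 CPM in knockout embryos, a log2 fold change of 0.22 (SE 0.0784, unadjusted p = 0.0172, FDR 0.193 by edgeR). Wild-type embryo 3 reached the knockout range and the other wild-type embryos were below it. Without that embryo the log2 fold change of Erbb2 was 0.30 with an FDR of 0.0365.

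Erbb3 (chromosome 10, 128004579 to 128026708, minus strand), a receptor with little kinase activity of its own that is prominent in neural crest, stood at 20.4, 17.9, 24.8 and 20.1 CPM in wild-type and 24.2, 25.1, 20.8 and 27.2 CPM in knockout embryos. The genotypes overlapped, with wild-type embryo 3 high and knockout embryo 3 low for their groups (log2 fold change 0.22, SE 0.121, FDR 0.379 by edgeR). Of the 6 neural crest markers, 6 had higher means in knockout embryos, 0 passed the FDR by edgeR and 0 had an unadjusted p under 0.05. Their summed level was 217 to 260 CPM in wild-type embryos and 185 to 355 CPM in knockout embryos, lowest in knockout embryo 3 and highest in knockout embryo 4, the same embryos that were lowest and highest in Erbb3 among the knockouts. The part of neural crest content in the Erbb3 values was not tested.

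Egfr, which binds epidermal growth factor and its relatives rather than Nrg1, had higher values in every knockout embryo for the transcript kept. It was read from NM_207655 (5935 bases, chromosome 11, 16652206 to 16818161, plus strand). A shorter entry, NM_007912, had 52, 68, 68 and 49 reads in wild-type and 76, 90, 70 and 65 in knockout embryos. These reads, not scaled for depth, overlapped between genotypes. All that follows is for NM_207655. Values were 7.85, 8.34, 6.32 and 6.04 CPM in wild-type and 8.74, 10.7, 10.6 and 8.81 CPM in knockout embryos, a ratio of 1.36 and a log2 fold change of 0.44 (SE 0.145, unadjusted p = 0.0122, FDR 0.171 by edgeR). The groups were parted by the narrow gap between 8.34 CPM in wild-type embryo 2 and 8.74 CPM in knockout embryo 1.

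Starts of Erbb4 and Egfr are shown because these receptors had the smallest p-values and opposite signs. Each run is the RefSeq promoter on GRCm38.p6, 250 bases before to 50 after the start, written 5′ to 3′ on the strand of the gene, at chr1:69108010-69108309 (minus) and chr11:16751953-16752252 (plus), a later build than the mm9 coordinates above. Capitals mark TAAT read on either strand (ATTA is its reverse complement), the core that homeodomain proteins such as Isl1 bind.
Erbb4: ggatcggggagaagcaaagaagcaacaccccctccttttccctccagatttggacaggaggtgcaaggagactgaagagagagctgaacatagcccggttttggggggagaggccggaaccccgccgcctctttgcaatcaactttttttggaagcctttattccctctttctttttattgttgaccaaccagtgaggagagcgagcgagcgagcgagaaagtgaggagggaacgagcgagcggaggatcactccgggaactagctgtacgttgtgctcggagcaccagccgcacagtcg
Egfr: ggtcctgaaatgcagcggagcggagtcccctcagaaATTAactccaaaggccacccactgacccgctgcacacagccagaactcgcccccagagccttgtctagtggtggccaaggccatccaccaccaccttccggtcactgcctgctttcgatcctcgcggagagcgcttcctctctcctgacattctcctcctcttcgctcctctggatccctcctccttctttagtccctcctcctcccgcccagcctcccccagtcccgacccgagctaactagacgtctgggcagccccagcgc
The letters occurred 0 times for Erbb4 and 1 time for Egfr. Of 32851 promoters of the same length, 58% held the core, with a median of 1. Promoters were listed for 7 of the 9 genes, and the core occurred 2 times for Edn1, 1 time for Ednrb, 0 times for Erbb2 and Ednra, and 1, 1, 0 and 0 times at the 4 starts of Ece1. The search was chosen with the expression values known, and a match of 4 letters describes the sequence only.

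Nrg1, the neuregulin ligand, stood at 7.22, 6.78, 8.64 and 7.45 CPM in wild-type and 6.19, 5.93, 6.22 and 6.76 CPM in knockout embryos. Every knockout value was below every wild-type value, by as little as 6.76 against 6.78 CPM. The means were 7.52 ± 0.793 and 6.27 ± 0.347 CPM (SD, n = 4 each), a log2 fold change of -0.26 (SE 0.122, unadjusted p = 0.0566, FDR 0.304 by edgeR). Reads were counted over the single Nrg1 entry of the table, NM_178591 of 2093 bases (chromosome 8, 32928500 to 33119581, minus strand), so exons that belong only to other Nrg1 isoforms were not counted here. Of 9 markers of endothelium and endocardium, the cells known to make neuregulin in the heart, 7 had lower means and 0 passed the FDR by edgeR. An unadjusted p under 0.05 by edgeR was reached by 2 of 9, beside 17.4% of all genes, and 6868 of all 14075 genes were lower. Summed levels of these markers were 380 to 474 CPM in wild-type and 300 to 429 CPM in knockout embryos. Their part in the Nrg1 values was not tested.

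Log2 fold changes of the 9 genes ran from -0.85 to 0.44, and Erbb4 alone was beyond 0.58 in size.

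**Figure D3:**
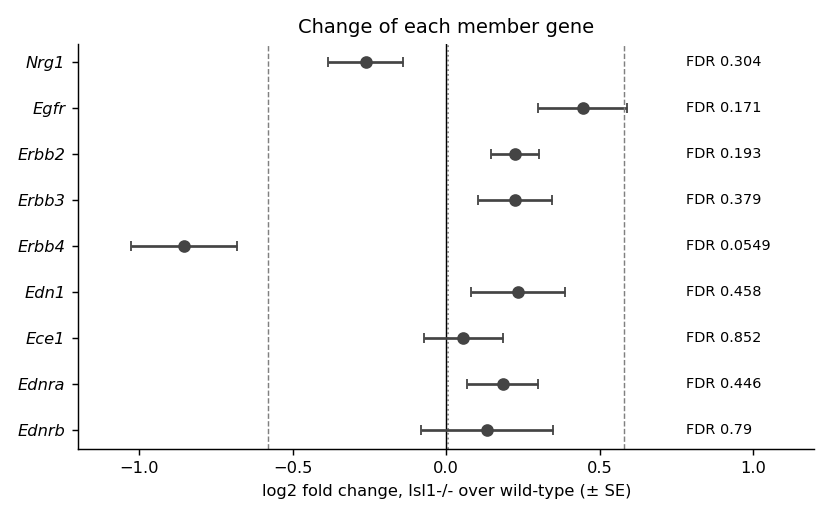
Log2 fold change of each of the 9 genes, Isl1-/- over wild-type (n = 4 each), with bars of 1 SE and the FDR over 14075 genes at the right. Dashed lines mark 0.58 in either direction, the solid line 0 and the dotted line the median of all genes, 0.006. Erbb4 lies at -0.85 beyond the dashed line, and Egfr, the next in size, at 0.44 lies within it.

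Compared per transcript length (RPKM, reads per kilobase and per 1000000 reads, recomputed from the counts after the same scaling), Ece1 was the most abundant in wild-type embryos with a mean of 34.7 RPKM. It was followed by Ednra at 13.9, Erbb2 at 13.3, Ednrb at 8.77, Erbb3 at 5.22, Nrg1 at 3.59, Edn1 at 3.47, Erbb4 at 1.42 and Egfr at 1.2 RPKM. Values of neighbours in this order overlapped between Ednra and Erbb2, Erbb2 and Ednrb, Nrg1 and Edn1, and Erbb4 and Egfr, so these pairs cannot be ranked against each other. In knockout embryos the order was that of wild-type except at 2 places. Edn1, at 4.08 RPKM, stood above Nrg1, at 3.0 RPKM, and Egfr, at 1.64 RPKM, stood above Erbb4, at 0.788 RPKM, neither pair overlapping. In single embryos Egfr was 0.83, 0.84, 1.06 and 0.715 times the Erbb4 level in wild-type and 2.06, 2.69, 2.12 and 1.6 times in knockout embryos. These ranks rest on the length of the 1 transcript kept, 12007 bases for Erbb4 and 5935 for Egfr. Not divided by length, Erbb4 and Egfr had means of 17.1 and 7.14 CPM in wild-type and 9.47 and 9.71 CPM in knockout embryos.

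**Figure D4:**
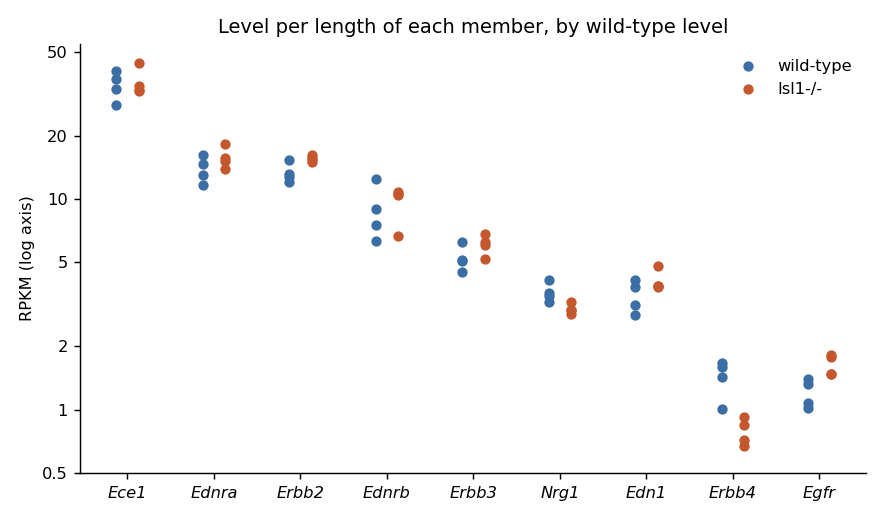
Level per length (RPKM, log axis) of each of the 9 genes in 4 wild-type and 4 Isl1-/- embryos, ordered by the wild-type mean. Ece1 is highest in both genotypes. Erbb4 and Egfr overlap in wild-type embryos and separate in knockout embryos.

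The make-up of the ErbB receptors was also read per length. Erbb2 held 62.8 ± 1.98% of the summed RPKM of the 4 receptors in wild-type and 64.6 ± 1.81% in knockout embryos (SD, n = 4 each), and Erbb3 held 24.6 ± 2.07% and 25.3 ± 2.13%. Egfr held 5.73 ± 1.12% and 6.82 ± 0.914%. Erbb4 held 6.83 ± 1.76% in wild-type embryos, from 4.28% in embryo 3 to 8.09% in embryo 2, and 3.29 ± 0.515% in knockout embryos, from 2.77% to 3.78%. By RNA per length of the transcripts kept, the main ErbB receptors of the tissue were therefore Erbb2 and Erbb3 in both genotypes. The place of Erbb3 above Erbb4 in wild-type embryos rests on that length. Not divided by length, Erbb3 and Erbb4 had means of 20.8 and 17.1 CPM in wild-type, with overlapping values, and 24.3 and 9.47 CPM in knockout embryos. The Erbb4 shares did not overlap between genotypes. These shares hold the same reads as the fold changes above and were given no test.

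Ligand was set against receptor within each embryo, as a ratio of RPKM, for 5 pairs. Nrg1 was 0.285, 0.247, 0.271 and 0.281 times Erbb2 in wild-type and 0.182, 0.182, 0.198 and 0.212 times Erbb2 in knockout embryos. Against Erbb3, Nrg1 was 0.673, 0.724, 0.664 and 0.705 in wild-type and 0.488, 0.451, 0.572 and 0.473 in knockout embryos. Both ratios were lower in all 4 knockout embryos, by -0.49 and -0.48 on the log2 scale, each with p = 0.0286 in an exact two-sided permutation test (n = 4 each), the smallest p this design can give, and 0.0715 after adjustment over the 5 ratios. Neither passed the threshold after adjustment. With only these ratios at the smallest p, 0.0715 is the lowest value that adjustment over 5 can give, so neither could pass whatever its size.

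Nrg1 against Erbb4, its receptor on heart muscle, went the other way. The ratio was 2.17, 1.94, 4.10 and 2.50 in wild-type and 4.13, 4.21, 3.54 and 3.49 in knockout embryos, 0.58 higher on the log2 scale (exact permutation p = 0.0857, adjusted 0.1428, n = 4 each). On log2(deposited RPKM + 1), a scale that shrinks differences of low genes, it was 0.17 higher (exact p = 0.2286). Wild-type embryo 3, with its low Erbb4, lay within the knockout range and the other wild-type embryos lay below it.

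**Figure D5:**
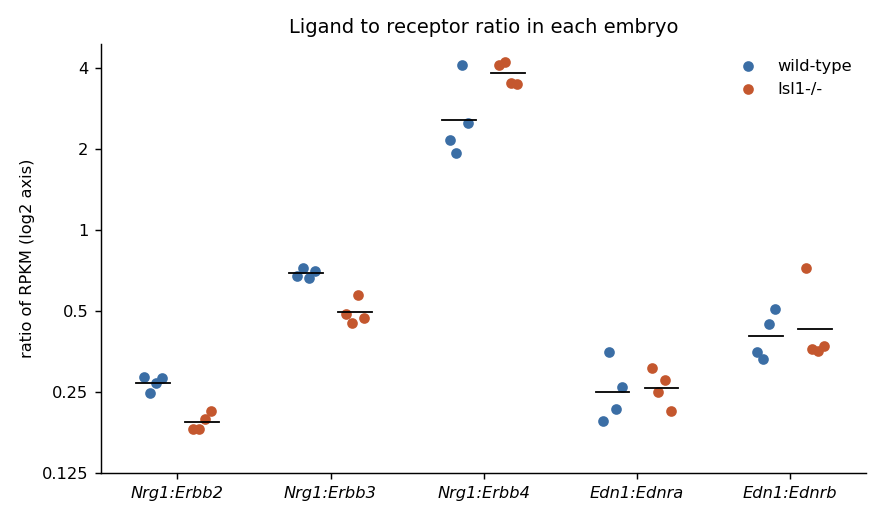
Ratio of ligand to receptor RPKM (log2 axis) in each embryo for 5 pairs, with horizontal lines at the mean of the log2 ratios (n = 4 per genotype). Nrg1:Erbb2 and Nrg1:Erbb3 are lower in every knockout embryo, and the other pairs overlap between genotypes.

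Of the endothelin genes, none of the 4 members separated the genotypes. Edn1, the ligand (chromosome 13, 42396639 to 42403358, plus strand), stood at 6.72, 8.78, 5.98 and 8.14 CPM in wild-type and 10.2, 8.12, 8.21 and 8.22 CPM in knockout embryos (log2 fold change 0.23, SE 0.152, FDR 0.458 by edgeR). Knockout embryo 1 was high and the other 3 knockout embryos lay within the wild-type range. The log2 fold change of Edn1 was 0.14 without wild-type embryo 3 or knockout embryo 1 and 0.15 with the Y-linked covariate. Ece1, the converting enzyme (chromosome 4, 137418152 to 137521144, plus strand), stood at 160, 194, 178 and 134 CPM in wild-type and 158, 212, 166 and 156 CPM in knockout embryos (log2 fold change 0.06, SE 0.128, FDR 0.852). Its sign turned to -0.03 without wild-type embryo 4 and to -0.05 without knockout embryo 2, and with the Y-linked covariate the log2 fold change was 0.26 (unadjusted p = 0.0096, FDR 0.268 by edgeR).

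Ednra, the Edn1 receptor of arch neural crest (chromosome 8, 80186930 to 80248363, minus strand), stood at 58.8, 42.4, 47.2 and 53.1 CPM in wild-type and 57.1, 55.4, 50.4 and 66.1 CPM in knockout embryos. The groups overlapped, with a wild-type low of 42.4 and a knockout high of 66.1 CPM outside the shared stretch (log2 fold change 0.18, SE 0.116, FDR 0.446 by edgeR), and the value was 0.11 without wild-type embryo 2 or knockout embryo 4. Ednrb (chromosome 14, 104213842 to 104243390, minus strand) stood at 37.3, 51.7, 26.3 and 31.3 CPM in wild-type and 27.9, 44.3, 45.2 and 43.5 CPM in knockout embryos, the widest spread relative to the mean within each genotype among the 9 genes (log2 fold change 0.13, SE 0.215, FDR 0.79). Wild-type embryo 2 was the highest of all and knockout embryo 1 the second lowest. The log2 fold change of Ednrb ran from 0.0032 without wild-type embryo 3 to 0.34 without wild-type embryo 2, and was 0.26 with the Y-linked covariate.

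Ednra made up 61.6 ± 8.81% of the summed RPKM of both endothelin receptors in wild-type and 62.3 ± 6.13% in knockout embryos (SD, n = 4 each). It exceeded Ednrb in 7 of 8 embryos, wild-type embryo 2 being the exception at 48.5%. Edn1 against Ednra differed by 0.05 on the log2 scale between genotypes (exact permutation p = 0.8, adjusted 0.8, n = 4 each) and Edn1 against Ednrb by 0.09 (exact p = 0.7429, adjusted 0.8). The neural crest markers given beside Erbb3 bear on these receptors as well, and their part in the values was not tested.

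Other genes of the ErbB pathway were read from a list of 29, of which 24 were expressed enough to be tested and Areg, Btc, Ereg, Epgn and Nrg3 were not. Of the 24, 0 passed the FDR by edgeR, 13 were lower and 11 higher, and 2 had an unadjusted p under 0.05, both lower, where 17.4% of all genes did. DESeq2 called 1, where it called 5.35% of all genes. The median log2 fold change was -0.014, beside 0.006 for all genes.

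Hbegf, a ligand of Egfr and Erbb4 that is shed from the membrane, had the smallest p of the list. It stood at 10.6, 10.4, 10.1 and 8.63 CPM in wild-type and 4.83, 7.46, 5.65 and 4.60 CPM in knockout embryos, without overlap (log2 fold change -0.82, SE 0.167, unadjusted p = 0.000668, FDR 0.0575 by edgeR). The FDR of Hbegf was 0.000978 with DESeq2 and 0.136 with the Y-linked covariate. When 1 embryo was left out it ran from 0.0169, without knockout embryo 2, to 0.177, without knockout embryo 4. Of the 5 ErbB ligands tested beside Nrg1, 3 were lower and 2 higher.

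Nrg2, another neuregulin, was scarce, at 0.169 to 0.443 CPM in wild-type and 0.348 to 1.15 CPM in knockout embryos (log2 fold change 0.98, FDR 0.304). Of the 6 genes that release ligands, Adam19, a metalloprotease that sheds neuregulin, had a log2 fold change of -0.38 (FDR 0.249; -0.16 with the Y-linked covariate), and Rhbdf2, a partner of the sheddase Adam17, one of 0.27 (FDR 0.292). Of the 13 adaptors and downstream genes, Ptpn11, the phosphatase Shp2, had a log2 fold change of -0.13 (FDR 0.323; -0.08 with the Y-linked covariate) and Pik3ca, a catalytic subunit of phosphoinositide 3-kinase, one of 0.11 (FDR 0.423), the smallest p-values of that group.

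The endothelin list of 18 genes held 16 that were tested, without Edn2 and Gsc. Of the 16, 2 fell past the FDR by edgeR and 0 rose, beside 0.973% of all genes. An unadjusted p under 0.05 was reached by 3 lower and 2 higher genes, beside 17.4% of all genes, and DESeq2 called 3, beside 5.35%. In all 8 were lower and 8 higher, with a median log2 fold change of -0.031. Mme, or neprilysin, a membrane protease that degrades endothelin and other peptides, fell from 42.5, 49.0, 49.4 and 38.9 CPM in wild-type to 24.9, 31.5, 24.5 and 26.8 CPM in knockout embryos (log2 fold change -0.74, SE 0.112, FDR 0.0123 by edgeR). Its FDR was 0.0536 without knockout embryo 1 and 0.0567 without knockout embryo 4.

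Mef2c, a transcription factor that acts downstream of Ednra in the arches and is also a heart muscle and heart progenitor gene, fell from 101, 95.2, 113 and 97.1 CPM to 66.1, 58.1, 50.4 and 70.3 CPM (log2 fold change -0.73, SE 0.105, FDR 0.00985 by edgeR). For Mme and Mef2c alike, every knockout value lay below every wild-type value. Both were lower in the genotype with the lower heart muscle marker sum. Within genotypes they did not follow it: wild-type embryo 3, with the lowest sum of its group, had the highest Mme and Mef2c of its group, and knockout embryo 3, with the highest sum among knockouts, had the lowest of both. The part of heart muscle content in these values was not tested.

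Edn3, the main ligand of Ednrb, stood at 8.68 to 11.4 CPM in wild-type and 9.62 to 16.2 CPM in knockout embryos (log2 fold change 0.38, FDR 0.26; 0.16 with the Y-linked covariate). Dlx3, an arch homeobox gene downstream of Edn1, had a log2 fold change of 0.74 (FDR 0.149; 0.0416 with DESeq2). Of the 5 arch genes tested, Dlx3 and Mef2c among them, 2 were lower and 3 higher. An unadjusted p under 0.05 by edgeR was reached by 2 of the lower and 1 of the higher genes, beside 17.4% of all genes. Among the G proteins and phospholipases that relay endothelin receptors, the smallest p-values were those of Plcb4 (log2 fold change -0.16, FDR 0.405; -0.26 with the Y-linked covariate) and Plcb1 (0.18, FDR 0.437).

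Genes whose log2 CPM was most like Erbb4 over the 8 embryos were Pyroxd1 (Pearson r = 0.985), Zc3h8 (0.98) and Hnrnph1 (0.978). Once each genotype was centred on its own mean they were Arid4b (0.991), Calcr (0.991) and Fkbp14 (0.986), a different set. For Egfr they were Ppox (0.954), Fbxw17 (0.948) and Gstz1 (0.947), and within genotypes D1Pas1 (0.996), Slc25a17 (0.984) and Iscu (0.984). These are the highest of 14075 genes over 8 points that share library and depth, and describe these embryos only.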

How the data were processed

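RNA-seq of 4 Isl1-/- and 4 wild-type single embryos was analysed. The 9 genes, the pathway lists and the tests were chosen with earlier results of these data known. The authors mapped reads to mm9 with STAR (intron length 20 to 500000) and counted RefSeq exons of both strands with HOMER, versions not stated, so the deposited counts were raw reads per transcript. The deposited RPKM values, made by the authors with edgeR, were reads per kilobase and per 1000000 reads over all 31507 entries and served as an alternative. The authors' own DESeq2 columns of fold changes and p-values were not used. Reads of both strands were counted, and exons of Gm17443, 1810046J19Rik and 4933431K23Rik on the opposite strand overlap Nrg1, Erbb2 and Ednra, whose reads cannot be told apart from theirs. The treatment of reads shared by similar genes was not stated.

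The transcript of the highest summed count was kept for each of 20701 symbols. Counts were fitted in R 4.3.3 with edgeR 4.0.16 (filterByExpr, TMM, quasi-likelihood test on genotype, two-sided, Benjamini-Hochberg over 14075 genes), and the SE is the log2 fold change divided by the root of F. The fit was tested on simulated data. Ratios were compared by exact permutation tests (scipy 1.17.1), with no pseudocount. Alternatives were DESeq2 1.42.0, its size factors in edgeR, limma 3.58.1 on log2(deposited RPKM + 1), no filter, the longest transcript, all entries, a replicate block, the mean log2 CPM of 4 Y-linked genes as a covariate for sex and leaving out each embryo. Reads had no molecular identifiers. Nothing in the sources shows whether embryos shared litters. The p-values treat the embryos as independent and cannot separate genotype from litter.

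Named genes were Isl1, the 9 members, of each pathway list every gene past an FDR of 0.05 and the 2 with the smallest p, and the 3 genes most correlated with each of the 2 members with the smallest p. The 4 Y-linked genes are named outside this rule, as those of the covariate. Gene coordinates came from GENCODE vM1 on NCBIM37 (mm9), and promoters from RefSeq on GRCm38.p6. Plots were drawn with matplotlib 3.10.9.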

Additional observations from a re-analysis of the deposited data

Results flagged for a closer look

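Of 54 sets of 4 values examined for a far-lying embryo, 4 held one, at a cut that about 1 in 20 sets pass by chance. The sets share embryos, so that rate does not test how often 1 embryo is flagged. In each of the 4 sets the far-lying embryo was knockout embryo 1. Its Edn1 level was 10.2 CPM against 8.12 to 8.22 CPM in the others. Its Ednrb level was 27.9 CPM against 43.5 to 45.2 CPM. The Edn1 to Ednrb ratio of RPKM repeats these values and was 0.721 against 0.356 to 0.371. Plcb1, a phospholipase that relays endothelin receptors, was at 8.54 CPM in this embryo against 9.46 to 9.5 CPM. Without this embryo the Edn1 to Ednrb difference between genotypes turned from 0.09 to -0.16 on the log2 scale. The causes were not tested.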

How the results depend on the processing

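Of the 9 genes, 2 were lower and 7 higher under every alternative except the fits without wild-type embryo 4 or knockout embryo 2 (3 lower, 6 higher), where Ece1 turned to -0.03 and -0.051; Ece1 ran from -0.051 to 0.14 when 1 embryo was left out. Genes past the FDR numbered 137, and 709 with DESeq2, 309 with all transcript entries, 76 with the replicate block and 70 to 490 when 1 embryo was left out, 490 being without wild-type embryo 3. Members past the FDR went from 0 to 1 (Erbb4) with DESeq2 and with all entries and to 0 to 2 when 1 embryo was left out; members past the study's thresholds were 0 with limma on log2(RPKM + 1). Erbb4 was called at -0.85 by DESeq2 and at -0.84 with all entries (FDR 0.0431), and ran from -0.99 to -0.77 when 1 embryo was left out (FDR 0.00759 to 0.172) and from -0.93 to -0.30 over the other alternatives (FDR 0.000321 to 0.135), -0.30 being on the log2(RPKM + 1) scale, where Nrg1 was at -0.13, Egfr at 0.23 and Nrg2 at 0.093. With the Y-linked covariate 0 members passed, Erbb4 was at -0.93 (FDR 0.124), and Ece1 moved most among the members, from 0.06 to 0.26. Erbb2 ran from 0.18 to 0.30 (FDR 0.0365 to 0.426). The ErbB list had 1 gene past the FDR with DESeq2 and with all entries and 0 to 1 when 1 embryo was left out, and the endothelin list had 1 to 2 when 1 embryo was left out and 2 to 3 otherwise. Edn1 to Ednra turned to -0.015 on log2(deposited RPKM + 1) and ran from -0.065 to 0.22 when 1 embryo was left out, being negative without wild-type embryo 1 (-0.065), wild-type embryo 3 (-0.01) or knockout embryo 1 (-0.03). Edn1 to Ednrb ran from -0.16 to 0.20, being negative without wild-type embryo 2 (-0.0034) or knockout embryo 1. With 3 against 4 embryos the smallest exact p is 0.0571, and with pairs by number 0.125, so no ratio could pass. The cause of these shifts was not tested, beyond the fewer embryos in a fit. Replicate numbers pair embryos only by name: deviations of same-numbered embryos correlated at 0.109, 0.212, 0.0863 and 0.507, and 2 of 8 embryos correlated best with their own number. In the fit with the replicate block Erbb4 was at -0.84 with an FDR of 0.135, and 0 members passed. Depth was not tested as an alternative. The counting error alone was 6.98% to 9.17% for Nrg1, the gene with the lowest counts (119 to 205 reads a library), and 1.4% to 1.78% for Ece1. The SE of the log2 fold changes did not follow it. That SE was largest for Ednrb (0.215) and Erbb4 (0.172), and was 0.122 for Nrg1 and 0.128 for Ece1.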
